A study of Mus musculus and Homo sapiens with 81 samples.

Results

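The 36 aminoacyl-tRNA synthetase genes described here are the 20 of the cytosolic enzymes, Wars among them, and the 16 whose symbols end in 2 and whose products work in mitochondria. They were found by symbol among the 23336 genes of the mouse count table and, in upper case, among the 23227 genes of each human table. All 36 were present in each table and all 36 passed the filter on low counts in each of the 5 cell lines. They were listed by gene family and not by a cutoff on expression, but with earlier results of these data known.

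The study measured poly(A) RNA by sequencing in 81 libraries of cultured, Cas9-expressing cells in 30 groups. Mouse B16 melanoma cells carried either the non-targeting guide Bro3 (control) or the guide Ptpn2sg3 against Ptpn2, and received vehicle, IFNb (1000 U/mL), IFNg (100 ng/mL), TNFa (10 ng/mL) or 2 of these together for 48 h, in 14 groups of 3 libraries. The human lines, of which A375 and MelJuSo are melanoma, A549 is lung cancer and HT29 is colon cancer, carried the non-targeting guide Bro4 or a guide against PTPN2 and received vehicle or 100 ng/mL IFNg for 48 h, in 16 groups of 2 or 3 libraries. Vehicle was phosphate-buffered saline with serum albumin. Every group carried Cas9 and 1 lentiviral guide. A single guide stood for each genotype in each line, so the deletion cannot be told apart from any other difference between the cells that carried each guide. The labels do not call the replicates separate cultures. The p-values then measure the spread between these samples only, and that spread may be technical.

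Library totals ran from 3498860 to 9605776 counts. Ptpn2 fell in the cells carrying its guide, from 44.7 to 61.9 CPM (read counts scaled to the library size, with the TMM factors of edgeR) in control B16 libraries to between 8.23 and 16.4, and the control libraries of A549, HT29 and MelJuSo likewise lay at 26.2 to 38.4, 27.9 to 40.2 and 14.2 to 17.7 CPM against 14.1 to 20.7, 15.4 to 27.6 and 5.54 to 13.9 CPM. A375 went against its labels under vehicle. The 2 libraries labelled control held 11.9 and 12.1 CPM of PTPN2 and the 3 labelled PTPN2 guide held 24.1, 25.1 and 24.2 CPM, whereas under IFNg the order was that of the labels. A375 groups are therefore named as labelled, and the IFNg response of A375 is given over both guides. In B16, 5 libraries stood apart from their groups, 2 of control cells under IFNb with IFNg (replicates 2 and 3) and 1 each of Ptpn2-guide cells under IFNb with IFNg (replicate 3), TNFa (replicate 1) and IFNg with TNFa (replicate 1). The main results on those groups are given with and without them. The melanocyte markers Mlana, Pmel, Tyr, Dct, Mitf and Sox10 were all expressed in B16 (3572 to 16625 CPM summed), while in A375 only 3 of the 6 passed the filter.

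Aminoacyl-tRNA synthetases join each amino acid to its transfer RNAs and so supply the ribosome with substrate. Cells keep a cytosolic set and a mitochondrial set, which are mostly encoded by separate nuclear genes. Gars and Kars are exceptions whose single genes serve both compartments. Several of the cytosolic enzymes are held in a multisynthetase complex by the scaffold proteins Aimp1, Aimp2 and Eef1e1, and Eprs carries the glutamyl and prolyl enzymes in 1 protein. Wars, the tryptophanyl enzyme, is a classical IFNg-induced gene that is expressed beside the tryptophan-degrading enzyme Ido1. Many other cytosolic synthetase genes are known targets of Atf4, the transcription factor of the integrated stress response, which binds C/EBP-ATF response elements. Ptpn2 encodes a tyrosine phosphatase that dampens cytokine signalling.

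Elements of these known routes were looked for in the promoter letters of the members. RefSeq promoter sequence (build GRCm38.p6, the 250 bases before the start site) was matched for 27 of the 36 members, 13 cytosolic and 14 mitochondrial, and Wars was not among them. Both strands were searched for TGATGNAA (C/EBP-ATF response element), TTCNNNGAA (gamma-activated site, GAS) and the interferon-stimulated response element. The C/EBP-ATF letters were found in Aars, Gars and Tars and in 3.45% of all 32851 promoters. The GAS letters were found in Kars, Aars and Nars2 and in 7.02% of all promoters, and the interferon-stimulated response element in Qars and in 2.98%. The windows below show the C/EBP-ATF letters of Gars and Tars and the element of Qars, and those of Aars, Kars and Nars2 are not printed. Capitals mark the matched motif, which reads as the reverse complement since each lies on the strand opposite to the gene. Whether any of these letters has a part in the expression of its gene was not tested.
Gars, C/EBP-ATF element, chr6:55037945-55038000, plus strand: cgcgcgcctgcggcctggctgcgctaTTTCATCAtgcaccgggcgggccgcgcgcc
Tars, C/EBP-ATF element, chr15:11399659-11399699, minus strand: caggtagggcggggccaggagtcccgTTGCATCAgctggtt
Qars, interferon-stimulated response element, chr9:108507780-108507841, plus strand: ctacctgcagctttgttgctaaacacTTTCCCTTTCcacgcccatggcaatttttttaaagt
The matched letters lie 22 bases before the RefSeq start site in Gars, 7 in Tars and 189 in Qars. These start sites are not always those of the GENCODE gene models, in which Qars starts earlier, at 108507706, so that its window lies inside the annotated gene, and the Tars model, which starts at 11399665, reaches into the window of Tars. A match is a description of these letters and not a binding site.

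Per exon length, the cytosolic genes were expressed above the mitochondrial ones in unstimulated control B16 cells. Gars was highest at 295 ± 9.58 length-scaled CPM (RPKM, mean ± SD, n = 3), followed by Nars at 141, Eprs at 123 and Sars at 116 RPKM. Every cytosolic member lay above every mitochondrial one except Lars2, which ranked 5 of 36 at 104 ± 9.26 RPKM. The rank of Lars2 is less certain than the others, since within groups its values ran with those of the ribosomal RNA gene Rn45s (r = 0.96). The lowest cytosolic member was Farsa at 31.3 RPKM. Among the other mitochondrial genes the RPKM levels ran from 27.0 for Iars2 down to 2.85 for Mars2. Wars, at 56.4 ± 0.126 RPKM, ranked 14 of 36 and lay between Yars (57.1 ± 2.60), from which it differed by less than the SD, and Qars (53.5 ± 2.28), from which it differed by somewhat more.

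Wars rose under every treatment that held IFNg and was called under no other. It lies on mouse chromosome 12 at 108860030 to 108894174 (mm10, minus strand). In control B16 cells the vehicle libraries held 162, 162 and 162 CPM of Wars and the IFNg libraries 331, 329 and 313 CPM. The 2 groups did not overlap, and the log2 fold change was 1.0 ± 0.05 (SE, adjusted p = 1.6e-23). With IFNb alone the libraries held 155, 161 and 158 CPM, with TNFa alone 185, 165 and 164 CPM, and with both 160.3, 172.5 and 153 CPM, all in or near the vehicle range. None of these 3 treatments passed the test for Wars (log2 fold changes of -0.04, 0.08 and 0.00, adjusted p of 0.66, 0.24 and 0.99).

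Cells with the Ptpn2 guide started from the same level of Wars and reached a higher one. Their vehicle libraries held 165, 160.1 and 168 CPM, a log2 difference of 0.02 from control vehicle (adjusted p = 0.87). Under IFNg they held 486, 467.5 and 472 CPM, all above the 331 CPM of the highest control library. Their response to IFNg was 1.53 (adjusted p = 2.8e-32) on the log2 scale, and the interaction, which is the response of Ptpn2-guide cells minus that of control cells, was 0.53 ± 0.07 (adjusted p = 7.8e-08). Of the 20 cytosolic members 10 were higher in Ptpn2-guide than in control cells under IFNg and none lower (34.9% of all genes called), and of these Wars differed most (0.55). Aars, Cars, Eprs, Gars, Lars and Nars, also among these 10, were higher under vehicle as well. Of the 16 mitochondrial members 1 was higher and 1 lower under IFNg, and neither call held in every alternative and with each library left out. Under IFNb, TNFa or both, Wars did not differ between the guides beyond the test (log2 differences from -0.05 to 0.03), and no interaction with these 3 treatments was called.

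**Figure D1:**
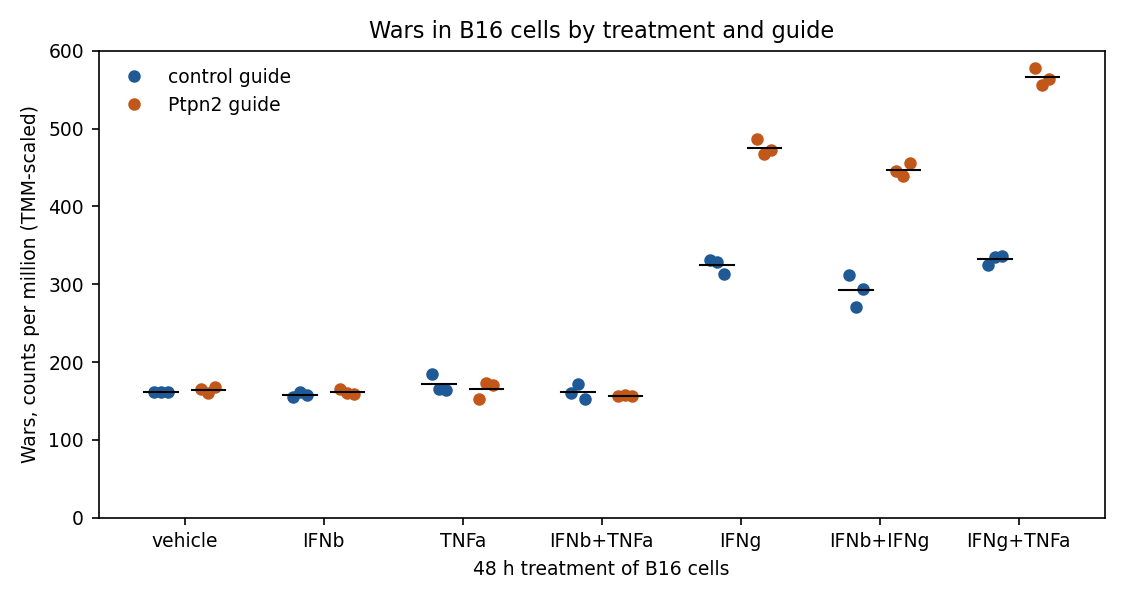
Wars in TMM-scaled CPM (y axis) in each of the 42 B16 libraries by 48 h treatment (x axis), with control guide libraries in blue, Ptpn2 guide libraries in orange and lines at group means. Libraries with IFNg start at 271 CPM and all others end at 185 CPM, and under IFNg each orange library lies above each blue one.

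TNFa given with IFNg raised Wars above IFNg alone in Ptpn2-guide cells and was not called in control cells. Whether the step from IFNg to the pair differed between the guides was not tested. The interactions below are taken against vehicle, where that of IFNg alone was 0.53. Control libraries given IFNg with TNFa held 325, 334 and 336 CPM, a log2 difference of 0.03 from IFNg alone (adjusted p = 0.57, where 61.5% of all genes were called). Ptpn2-guide libraries given the pair held 578, 556 and 563 CPM, above all 3 libraries of IFNg alone, with a log2 difference of 0.25 (adjusted p = 9.7e-06, 61.7% of all genes called), or 0.22 without the library that stood apart. The response to the pair was 1.78 against 1.04 on the log2 scale in control cells, an interaction of 0.75 (adjusted p = 2.9e-12, 26.3% of all genes called), or 0.76 without that library. With IFNb and IFNg together the control libraries held 312, 271 and 293.5 CPM and the Ptpn2-guide libraries 445.5, 439 and 456 CPM. The control value lay 0.15 below IFNg alone on the log2 scale (adjusted p = 0.0084), a call that ended without the 5 libraries that stood apart (-0.10, adjusted p = 0.18). The interaction for this pair was 0.59 (adjusted p = 1.5e-08, 15.4% of all genes called) and 0.54 without those libraries. Despite its change, Wars stayed a small share of synthetase RNA in B16, between 2.60% and 2.75% of the CPM of the 36 members in control vehicle and 6.13% to 6.30% in Ptpn2-guide cells under IFNg with TNFa.

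Over the means of the 14 B16 groups, the genes whose log2 CPM ran most like that of Wars among 11725 others were Kremen2 (Pearson r = 0.991), Rnf19b (0.991), Socs3 (0.990), Arid5a (0.990) and Gm5431 (0.989). Among the members, Kars came closest (0.96), followed by Farsa (0.93) and Farsb (0.89). These are descriptions over groups that share library scaling and cytokines.

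IFNg raised most of the cytosolic synthetases of control B16 cells and few of the mitochondrial ones. Of the 20 cytosolic members 14 rose and none fell, of the 16 mitochondrial members 2 rose and 5 fell, and 37.9% of all 11726 tested genes were called (20% higher and 17.9% lower). The median log2 fold change was 0.20 for the cytosolic members, -0.12 for the mitochondrial members and 0.0047 for all genes. Kars, the lysyl enzyme, followed Wars, with 195, 195 and 188 CPM under vehicle and 347, 353 and 349 CPM under IFNg. That is a log2 fold change of 0.86 ± 0.05 (adjusted p = 1.9e-21), with no overlap between the groups. Rars, the arginyl enzyme, went from 216, 223 and 215 to 316, 317 and 308 CPM (0.53), and Lars from 151, 167 and 154 to 203, 206 and 203 CPM (0.38). Yars (0.37), Farsb (0.35), Cars (0.30), Dars (0.29), Gars (0.25), Qars (0.21), Tars (0.19), Eprs (0.18) and Nars (0.16) rose by less on the log2 scale, and each of these 12 calls held in every alternative analysis and with each library left out. Mars (-0.02) and Iars (-0.06) did not pass the test.

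In Ptpn2-guide cells 13 of the 20 cytosolic members rose under IFNg and 3 fell, where 59.4% of all genes were called, and the median was again 0.20. Kars went from 178, 174 and 178 CPM to 385, 397 and 403 CPM, above the control IFNg libraries, with a log2 fold change of 1.16 and an interaction of 0.30 ± 0.07 (adjusted p = 8.5e-04). Farsa and Farsb, the subunits of the phenylalanyl enzyme, rose by 0.55 and 0.37, Rars by 0.63 and Yars by 0.42. Iars, the isoleucyl enzyme, fell by 0.35, Mars, the methionyl enzyme, by 0.30 and Sars, the seryl enzyme, by 0.26 on the log2 scale. Of all members, Kars and Wars were those whose interaction with IFNg held in every alternative and with each library left out. Farsa (0.39), Mars (-0.28) and Iars (-0.29) also passed in the test over all libraries. That is 5 of 20, a share near the 21.5% of all genes, and nothing is read from it about the set. These 5 cytosolic calls became 3 without any of control vehicle replicate 1, control IFNg replicate 1 or Ptpn2-guide IFNg replicates 1, 2 or 3.

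**Figure D2:**
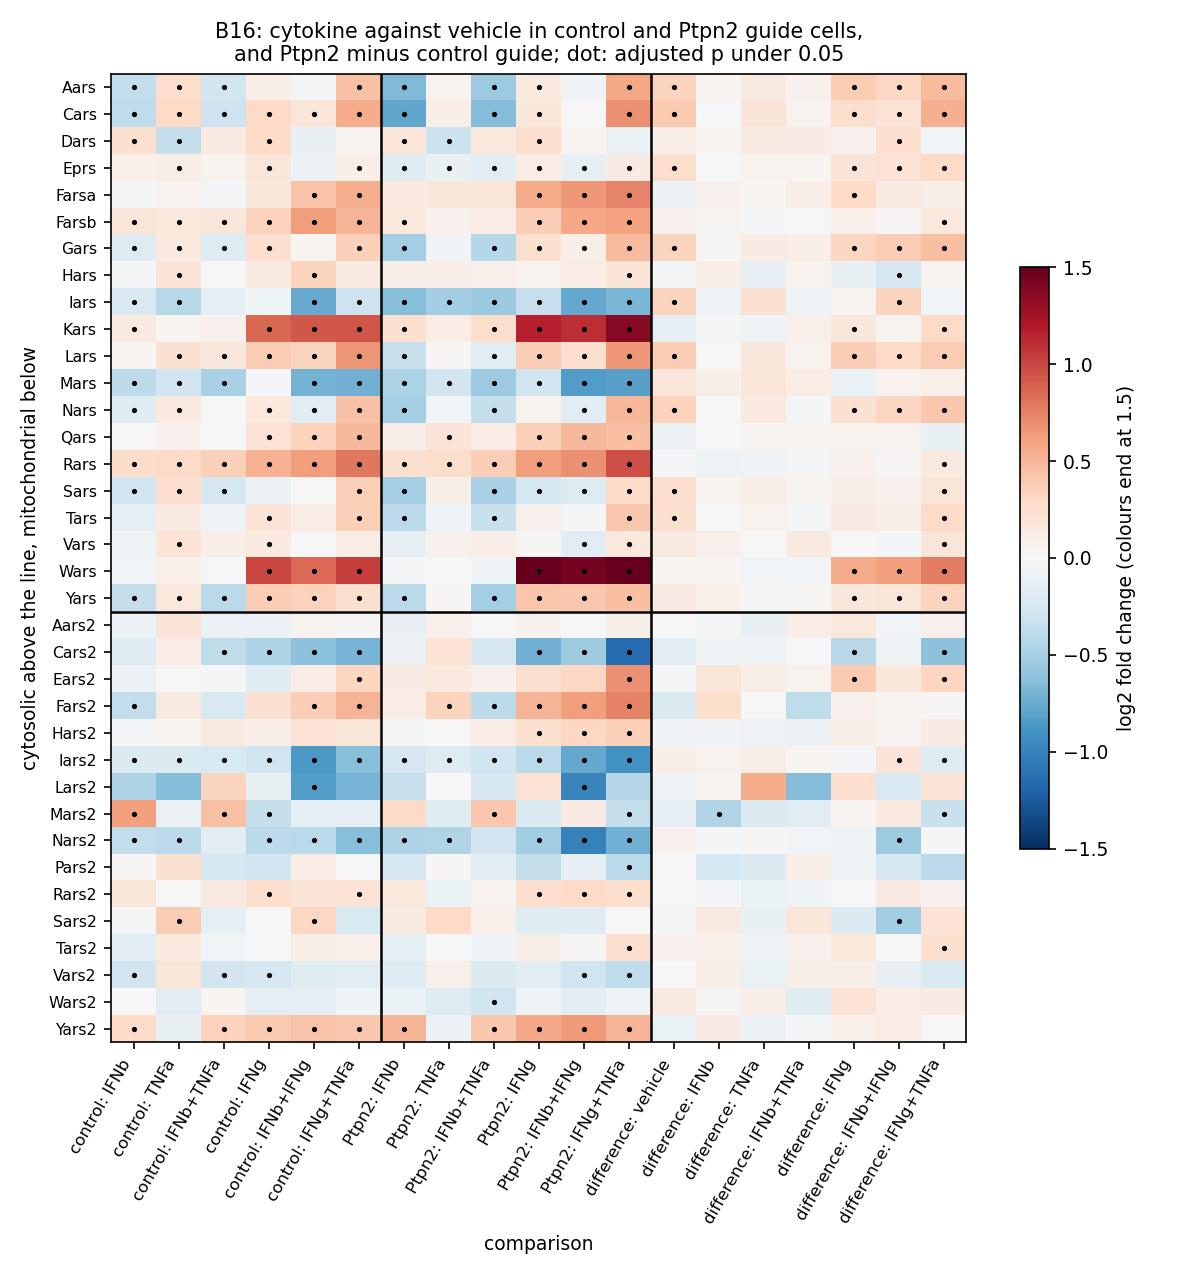
Log2 fold changes (colour, ending at 1.5 in each direction) of the 36 members (y axis) in 19 B16 comparisons (x axis): 6 treatments against vehicle in control cells, the same in Ptpn2-guide cells, and Ptpn2 guide minus control under each treatment, with a dot where the adjusted p is under 0.05. Kars and Wars are red wherever IFNg was given, whereas Aars, Cars, Gars and Nars are red in the vehicle column of the guide difference.

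The guides differed in the cytosolic set before any cytokine was given. Of the 20 cytosolic members, 9 were higher in Ptpn2-guide cells under vehicle and none lower, no mitochondrial member was called, and 3.07% of all genes were called (1.91% higher). Gars, the glycyl enzyme, held 696, 727 and 682 CPM in control and 846, 906 and 891 CPM in Ptpn2-guide libraries, with no overlap (log2 difference 0.33 ± 0.04, adjusted p = 4.6e-08). Aars, the alanyl enzyme, held 479, 541 and 517 against 620.2, 645 and 680.4 CPM (0.34 ± 0.05, adjusted p = 1.3e-06). Cars, the cysteinyl enzyme, held 127, 146 and 131 against 167, 176 and 189 CPM (0.40 ± 0.07, adjusted p = 7.7e-05). Lars (0.38), Nars (0.34), Iars (0.34), Sars (0.27) and Eprs (0.27) were likewise higher and, with the former 3, held in every alternative. Wars and Kars (log2 difference -0.12, adjusted p = 0.17) did not pass in this comparison. Of the exon bases of Aars, 23.06% are shared with Exosc6 on the same strand, so its counts are less certain than the others.

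Known Atf4 targets and amino acid genes moved in the same samples. Of 21 listed, 17 were higher in Ptpn2-guide cells under vehicle and none lower, with a median of 0.50. Trib3, a pseudokinase induced in stress, differed by 1.11 ± 0.12 and Asns, asparagine synthetase, by 0.54 ± 0.06. Within the vehicle libraries of Ptpn2-guide cells, replicate 1 was the lowest for both, with 99.8 CPM of Trib3 against 148 and 153 and 329.7 CPM of Asns against 411 and 432. Over the 14 group means Aars followed Asns and Trib3 with r of 0.96 and 0.98, Cars with 0.93 and 0.98, Gars with 0.91 and 0.98 and Tars with 0.92 and 0.96, again as a description. Not all cytosolic members did so. The values were 0.27 and -0.02 for Iars, 0.13 and -0.13 for Mars, 0.08 and 0.29 for Hars and -0.30 and -0.29 for Dars. Mitochondrial members went both ways, from 0.79 and 0.89 for Tars2 to -0.79 and -0.82 for Mars2. Aars, Cars, Gars and Tars also ran against Mki67, at -0.72, -0.75, -0.77 and -0.83. Among 11690 genes that are no members, the closest to the mean of the 19 cytosolic members without Wars were AU040320 (0.969), Tmem66 (0.968) and Slc3a2 (0.967), the last a subunit of amino acid transporters. Whether the Atf4 group had a part in the synthetase differences was not tested.

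Under IFNb no cytosolic member differed between Ptpn2-guide and control cells at the adjusted threshold, where 0.554% of all genes did. Gars held 606, 607 and 631 CPM in control and 623, 613 and 625 CPM in Ptpn2-guide libraries, which overlap. In Ptpn2-guide cells 11 cytosolic members fell under IFNb and 4 rose (27.7% of all genes called), with a median of -0.26. Cars fell by 0.77, Aars by 0.67, Iars by 0.64, Gars, Sars and Nars by 0.51 each, Mars by 0.48, Yars by 0.41 and Tars by 0.39 on the log2 scale. Kars (0.25) and Rars (0.23) rose. In control cells 8 cytosolic members fell and 4 rose (30.5% of all genes), led by Cars and Mars, which fell by 0.39 each, and by Aars and Yars, which fell by 0.36 each.

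The difference of the 2 IFNb responses was itself called for 6 cytosolic members, all negative, against 0.512% of all genes. Gars (-0.31 ± 0.06, adjusted p = 6.6e-04) and Lars (-0.38 ± 0.07, adjusted p = 0.0017) held in every alternative. Lars held 151, 167 and 154 CPM under control vehicle and 164, 157 and 160.1 CPM under IFNb, but fell in Ptpn2-guide cells from 196, 209 and 210.3 to 151, 165 and 166 CPM. The count of 6 became 3 without control vehicle replicate 1 and 2 without Ptpn2-guide vehicle replicate 3. Of the 21 Atf4 and amino acid genes 20 fell under IFNb in Ptpn2-guide cells (median -0.80), 14 fell in control cells (median -0.35), and the interaction was called negative for 8. TNFa added to IFNb left a like picture. With the pair 11 cytosolic members fell in Ptpn2-guide cells and 2 rose (38.4% of all genes), and no member differed between the guides (0.597% of all genes). In control cells 6 fell and 3 rose (38.5%). The cytosolic interaction counts for this pair depended on single libraries (0.913% of all genes called), and Nars was the member whose interaction held (-0.36 ± 0.07, adjusted p = 0.0016).

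TNFa alone raised some cytosolic members of control cells and lowered others. Of the 20, 12 rose and 3 fell, against 47.7% of all genes called, with a median of 0.15. Of these calls 9 held in every alternative. Cars (0.30), Rars (0.28), Aars (0.26), Sars (0.25), Lars (0.22) and Vars (0.20) rose, while Iars fell by 0.42, Dars by 0.35 and Mars by 0.28. Of the Atf4 list 16 of 21 rose and 1 fell. In Ptpn2-guide cells 2 cytosolic members rose and 4 fell (43.5% of all genes), and Iars (-0.52), Dars and Mars (-0.28) were again among the lower ones. The counts without the Ptpn2-guide TNFa library that stood apart were 4 higher and 4 lower. No member differed between the guides under TNFa (0.938% of all genes), although 2 cytosolic members did without the libraries that stood apart, and no interaction with TNFa was called for a member (0.0341% of all genes).

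Under IFNg with TNFa the cytosolic set was at its highest. In Ptpn2-guide cells 17 of the 20 rose and 2 fell, where 76.7% of all genes were called, and the median was 0.47 against 0.03 for all genes. Without the library that stood apart the counts were 16 and 2. Gars reached 1239, 1239.6 and 1199 CPM and Aars 992, 939 and 969 CPM, above every other B16 group of either gene. Against Ptpn2-guide vehicle Kars rose by 1.37, Rars by 0.96, Farsa by 0.73, Cars by 0.69, Lars by 0.65, Farsb by 0.61, Aars by 0.58, Nars by 0.50 and Gars by 0.48. Without the library that stood apart Kars rose by 1.35, Rars by 0.97, Farsa by 0.71, Cars by 0.68 and Gars by 0.47. In control cells 15 rose and 2 fell (69.3% of all genes), with a median of 0.40, led after Wars by Kars (0.94) and Rars (0.79). In all, 14 cytosolic members were higher in Ptpn2-guide than in control cells under the pair and none lower (41% of all genes), among them Cars (0.53), Aars (0.47), Gars (0.45) and Nars (0.40), and without that library the count was again 14. For Gars, Aars and Cars the difference was also there under vehicle and their interactions with the pair did not pass (0.12, 0.13 and 0.13). Kars differed by 0.30 and its interaction with the pair did pass (0.43 ± 0.07, adjusted p = 2.5e-06, and 0.43 without that library).

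Mars and Iars went the other way. Mars fell under IFNg with TNFa in control cells from 119, 137 and 129.9 CPM to 76.8, 74.2 and 83.7 CPM (log2 fold change -0.72 ± 0.07, adjusted p = 1.8e-13) and in Ptpn2-guide cells from 144, 146 and 146 to 77.1, 80.1 and 90.2 CPM (-0.82 ± 0.07, adjusted p = 4.9e-16). The groups did not overlap. Ddit3, which shares 2.29% of the Mars exon bases on the opposite strand, rose by 3.39 in control cells and 3.37 in Ptpn2-guide cells in the same comparison, and the strand setting of the counting is not given in the sources used here. Iars fell from 199, 216 and 211 to 116, 135 and 137 CPM in Ptpn2-guide cells (-0.69) and by 0.31 in control cells. Without the library that stood apart Mars and Iars fell by 0.77 and 0.61 in Ptpn2-guide cells. IFNb with IFNg lowered both genes as well, in comparisons where 65.4% (control) and 67.5% (Ptpn2 guide) of all genes were called. In control cells Iars fell by 0.76 and Mars by 0.71 (-0.98 and -0.71 without the libraries that stood apart), and in Ptpn2-guide cells by 0.77 and 0.84 (-0.70 and -0.81 without them). Against IFNg alone, 9 cytosolic members were lower and 5 higher in control cells given IFNb with IFNg (57.9% of all genes called), and 9 were lower and 1 higher in Ptpn2-guide cells (32.6%). Without the libraries that stood apart these counts were 7 and 3, and 10 and 1.

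The mitochondrial synthetases showed no common direction in B16. Their median log2 fold change lay between -0.12 and 0.02 for IFNb, IFNg and TNFa alone in control cells and at -0.04 under IFNg with TNFa in both genotypes. Over the 14 group means the median correlation between pairs was -0.09 (120 pairs). It was 0.51 for the 19 cytosolic members without Wars (171 pairs), and these values describe shared treatments and carry no test. The mitochondrial members also varied more within groups, with SDs of log2 CPM from 0.086 (Iars2) to 0.190 (Pars2) and 0.438 for Lars2. Those of the cytosolic members ran from 0.035 (Gars) to 0.103 (Iars). The part of this spread in the lower correlation was not tested. Cars2, Iars2 and Yars2 moved with IFNg in both genotypes. Cars2, the mitochondrial cysteinyl enzyme, held 27.4, 28.5 and 29.3 CPM under control vehicle and 20.9, 20.1 and 21.0 CPM under IFNg (-0.46 ± 0.11, adjusted p = 9.6e-04). In Ptpn2-guide cells it went from 26.8, 24.6 and 25.1 to 16.8, 13.2 and 16.2 CPM under IFNg (-0.73) and to 13.4, 11.2 and 9.57 CPM under IFNg with TNFa (-1.16 ± 0.13, adjusted p = 2.3e-11, and -1.30 without the library that stood apart). Its cytosolic counterpart Cars rose by 0.17 and 0.69 in the same comparisons.

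Iars2 and Yars2, the mitochondrial isoleucyl and tyrosyl enzymes, moved in opposite directions. Iars2 held 173, 182 and 186 CPM under control vehicle and 150.4, 145 and 145 CPM under IFNg (-0.30 ± 0.06, adjusted p = 2.0e-04), and fell to 99.1, 106 and 101 CPM in Ptpn2-guide cells under IFNg with TNFa (-0.91, and -0.89 without the library that stood apart). Of its exon bases 32.2% lie opposite other genes, 2010103J01Rik and Rab3gap2, so that without a known strand setting its counts are uncertain. Yars2 held 48.0, 48.1 and 41.6 CPM under control vehicle and 62.7, 63.6 and 52.6 CPM under IFNg (0.39 ± 0.08, adjusted p = 1.1e-04). It rose by 0.51 under IFNb and by 0.57 under IFNg in Ptpn2-guide cells. Under IFNg with TNFa in those cells Fars2 (0.75), Ears2 (0.68) and Yars2 (0.50) rose and Nars2 fell by 0.72. In all 6 of the 16 mitochondrial members rose and 6 fell there, with and without the library that stood apart. That is a share near the 76.7% of all genes called, and nothing is read from it about the set. Under IFNb 2 mitochondrial members rose and 4 fell in control cells (30.5% of all genes called), but these 6 calls became 2 without control vehicle replicate 3 and 3 without control IFNb replicate 3, and Mars2 was the one whose call held. It rose from 28.2, 35.5 and 32.9 to 51.7, 45.1 and 50.5 CPM (0.61 ± 0.11, adjusted p = 3.1e-05), the reverse of Mars. Between the guides Cars2 was lower in Ptpn2-guide cells under IFNg with TNFa (-0.61, and -0.73 without the library that stood apart). Wars2, the mitochondrial tryptophanyl enzyme, was called under none of the treatments that held IFNg, in either genotype.

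Lars2 varied between replicates more than any other member. The SD of its log2 CPM within groups was 0.438, against 0.190 for Pars2, the next, and 0.035 for Gars. Its 42 values ran from 163 to 974 CPM. Control replicate 1 under IFNb with TNFa held 974 CPM of Lars2 beside 8282 CPM of the ribosomal RNA gene Rn45s, where replicates 2 and 3 held 293 and 253 CPM beside 1902 and 1484. Ptpn2-guide replicate 3 under IFNg was next, with 657 CPM of Lars2 and 4862 of Rn45s, and Ptpn2-guide replicate 1 under IFNb with IFNg was lowest, with 163 and 1375. The log2 fold change of Lars2 under IFNb with IFNg, -0.84 in control and -0.99 in Ptpn2-guide cells, passed the test (adjusted p = 0.0498 and 0.0208). The control call was lost without any 1 of the 3 vehicle libraries or of treated replicates 1 and 2 (adjusted p from 0.0556 to 0.138) and without the libraries that stood apart (0.13). The call in Ptpn2-guide cells was lost without vehicle replicate 2 or treated replicate 1 or 2 (adjusted p from 0.0551 to 0.0755) and kept without the library that stood apart (-1.18, adjusted p = 0.0274). Within groups Lars2 ran with Rn45s at r = 0.96 over the 42 libraries. The part of ribosomal RNA reads in the Lars2 counts was not tested.

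**Figure D3:**
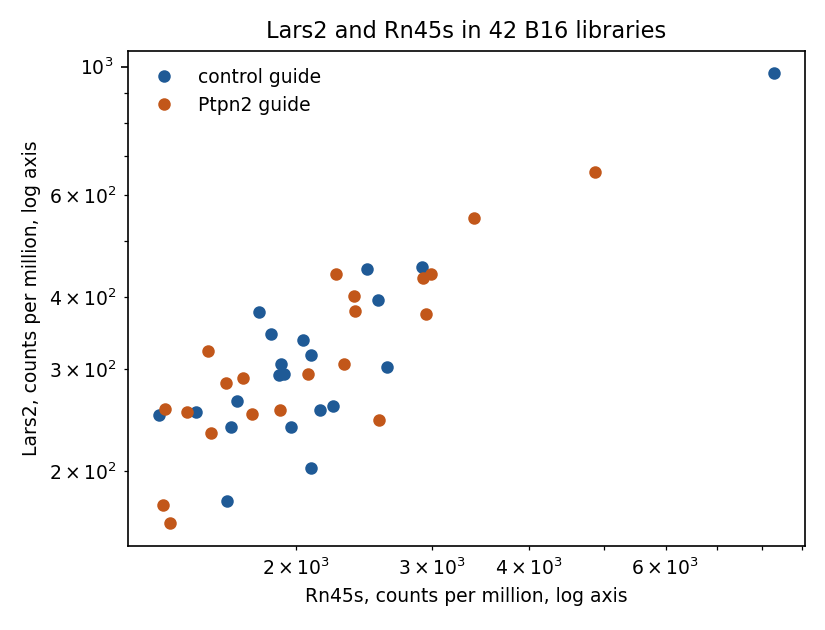
Lars2 (y axis) against Rn45s (x axis), both in TMM-scaled CPM on log axes, in the 42 B16 libraries, with control guide libraries in blue and Ptpn2 guide libraries in orange. The control library at the upper right, with 974 CPM of Lars2 and 8282 of Rn45s, is replicate 1 under IFNb with TNFa, and the lowest lies at 163 CPM.

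The human lines tested IFNg alone and differed in which synthetases answered it, while WARS rose in all 4 with either guide. KARS and RARS were called higher in the libraries labelled PTPN2 guide of all 4 lines, and in control cells KARS was not called in MelJuSo (0.08) nor RARS in A549 (0.09). In control A549 cells WARS went from 124 and 133 CPM to 1817 and 1894 CPM, a log2 fold change of 3.85 ± 0.03. In control HT29 cells it went from 96.8 and 96.5 to 5839 and 5826 CPM (5.92 ± 0.04, adjusted p = 7.2e-69). In control MelJuSo cells it went from 149, 144 and 132 to 1266, 1263 and 1253 CPM (3.15 ± 0.04, adjusted p = 4.0e-95). In a single fit of these 3 lines the responses differed from each other, by 2.02 ± 0.07 between HT29 and A549, 2.74 ± 0.06 between HT29 and MelJuSo and 0.72 ± 0.06 between A549 and MelJuSo on the log2 scale (adjusted p from 3.9e-121 to 1.0e-24). In A375 the IFNg response over both guides was 4.55 ± 0.02, from 219 and 196 CPM (labelled control) and 382, 397 and 377 CPM (labelled PTPN2 guide) to 4859.9, 4865 and 4728 CPM and 9065, 8971 and 9215 CPM.

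The PTPN2 guide raised the IFNg level of WARS in A549 and MelJuSo and not in HT29. PTPN2-guide A549 libraries held 133 and 134 CPM under vehicle and 4077 and 4035 CPM under IFNg, above both control libraries, with an interaction of 1.08 ± 0.05 (adjusted p = 1.5e-91). MelJuSo libraries with the PTPN2 guide held 141, 134 and 129 CPM and then 2673, 2734 and 2654 CPM, an interaction of 1.18 ± 0.05 (adjusted p = 2.3e-37). In HT29 the PTPN2-guide libraries held 123 and 119 CPM under vehicle, above both control libraries (0.33, adjusted p = 1.5e-06), and 5745 and 5818 CPM under IFNg, beside the control level (-0.01). The interaction was therefore negative there, at -0.34 ± 0.06 (adjusted p = 1.4e-05). HT29 control replicate 1 under IFNg is given as lung in 1 label, against its title and named line. Its WARS value, 5839 CPM, lay beside the 5826 CPM of replicate 2.

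**Figure D4:**
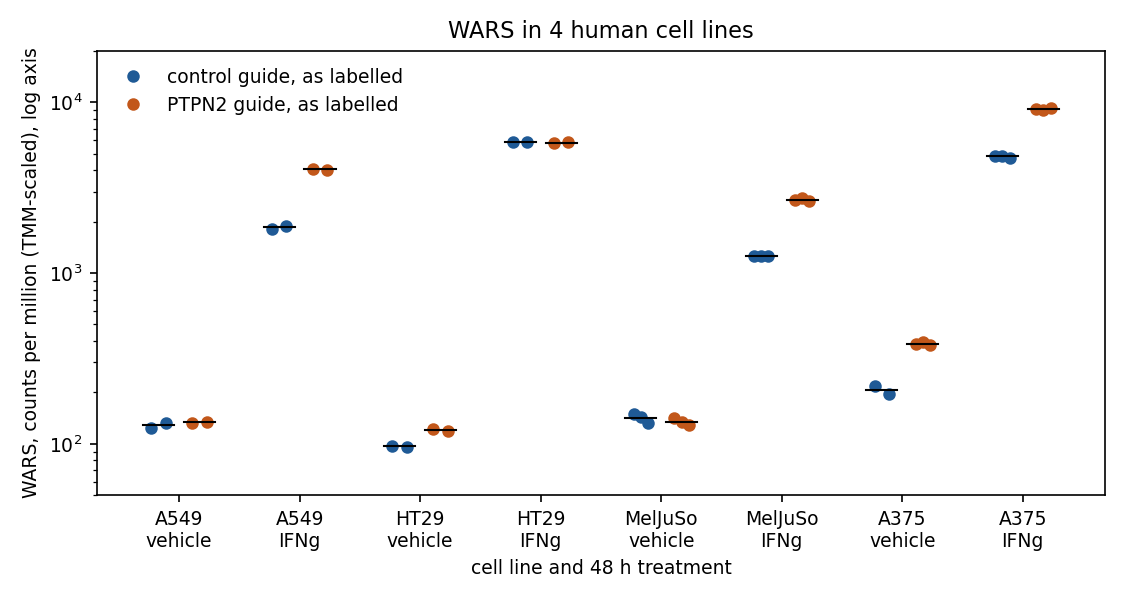
WARS in TMM-scaled CPM (log y axis) in each of the 39 human libraries by line and 48 h treatment (x axis), with libraries labelled control in blue, those labelled PTPN2 guide in orange and lines at group means. IFNg libraries start at 1253 CPM and vehicle libraries end at 397 CPM over the 4 lines, and under IFNg the guides separate in A549, MelJuSo and A375 but not in HT29.

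WARS became a large part of all synthetase RNA in these lines. It made up 2.19% to 4.0% of the CPM of the 36 members in the vehicle libraries of the 4 lines. Under IFNg it made up 59.4% to 60.3% in control HT29 cells, 22.9% to 23.8% in control A549 cells, where the PTPN2 guide raised it to between 41.6% and 41.9%, and 18.1% to 18.6% in control MelJuSo cells, against 28.4% to 29.2% with the guide. IDO1, the tryptophan-degrading enzyme, was between 0 and 0.477 CPM in all vehicle libraries. Under IFNg it held 207 and 212 CPM in control and 1047 and 1017 CPM in PTPN2-guide A549 libraries, and 39.0, 42.2 and 48.5 against 854, 898 and 858 CPM in MelJuSo. In HT29, where WARS did not differ between the guides, IDO1 held 880.1 and 866 CPM in control and 1821 and 1777 CPM in PTPN2-guide libraries under IFNg. WARS2 did not follow WARS. It was not called in A549 or MelJuSo, passed barely in PTPN2-guide HT29 cells (-0.23, adjusted p = 0.049) and was lower under IFNg in A375 (-0.51 over both guides).

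A549 was the line in which IFNg raised the wider cytosolic set most. In all, 15 cytosolic members rose and 1 fell in control cells, 1 mitochondrial member rose and 2 fell, and 47.6% of all 13172 tested genes were called. GARS went from 199 and 196 to 573 and 571 CPM (1.53 ± 0.04) and AARS from 293 and 295 to 738 and 715 CPM (1.31 ± 0.04), with no overlap. CARS (1.46), YARS (1.41), MARS (1.31), SARS (1.01), EPRS (0.83), IARS (0.76), NARS (0.70) and TARS (0.57) rose with them, and KARS rose by 0.43, FARSB by 0.38 and LARS by 0.34. The Atf4 list rose in the same libraries, with 20 of 21 called higher, 1 lower and a median of 1.44, while none of the 3 scaffold genes was called. Between the guides under IFNg, 10 cytosolic members were lower with the PTPN2 guide and WARS was higher. These 11 calls became 7 without control IFNg replicate 2, and AARS, EPRS and IARS were the lower ones that held. PTPN2-guide libraries held 540.3 and 535 CPM of GARS under IFNg (1.5), and AARS was lower than in control cells under IFNg (-0.23, in a comparison where 24.3% of all genes were called). With the guide 16 cytosolic members rose and 4 fell (53.5%). Of the members other than WARS, SARS2 was the one whose interaction held in every alternative (-0.58 ± 0.13, adjusted p = 2.3e-04, 11.3% of all genes called). It went from 40.8 and 38.1 to 49.8 and 50.5 CPM in control cells and from 47.3 and 41.6 to 37.7 and 38.2 CPM in PTPN2-guide cells.

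In HT29 the set split. In control cells 6 cytosolic members rose and 9 fell (59.4% of 12555 genes called), and the mitochondrial counts were 2 and 6. KARS went from 217 and 205 to 401 and 381 CPM in control cells (0.89) and from 183 and 167 to 419.6 and 439 CPM with the PTPN2 guide (1.29), an interaction of 0.40 ± 0.06 (adjusted p = 2.3e-06). HARS (0.57), RARS (0.54) and CARS (0.42) rose in control cells as well. LARS went from 204 and 198 to 144 and 135 CPM (-0.52) and, with the guide, from 174 and 168 to 94.5 and 89.1 CPM (-0.90). IARS fell by 0.47 and 0.81 and QARS by 0.59 and 0.52 in the 2 genotypes. With the guide 7 cytosolic members rose and 9 fell (67.8% of all genes called). The interaction was called for 8 of the 20 cytosolic members (19.1% of all genes), and 5 of these held, positive for KARS and CARS (0.42) and negative for LARS (-0.37), IARS (-0.35) and WARS. That of QARS did not pass (0.07). Under vehicle 15 cytosolic members were already lower with the guide and 1, WARS, was higher (21.1% of all genes called). Under IFNg 11 were lower and 2 higher with the guide (41.9%). Of the 5 elongation factors listed 4 fell in control cells and all 5 fell with the guide, with medians of -0.52 and -0.67. Among mitochondrial members HARS2 went from 43.4 and 44.4 to 65.8 and 54.8 CPM (0.46) and LARS2 rose by 0.60, while CARS2 (-0.55), MARS2 (-0.57), VARS2 (-0.69) and IARS2 (-0.39) fell.

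In MelJuSo the IFNg response of most cytosolic members depended on the guide, by the test of the interaction. In control cells 2 cytosolic members rose and 5 fell (11.5% of 12271 genes called). That count of 7 became 4 without control IFNg replicate 2 or 3 or control vehicle replicate 1, and GARS (-0.22), IARS (-0.16) and QARS (-0.16) kept their calls throughout. In PTPN2-guide cells 15 rose and 3 fell (54.6%). GARS went from 942, 917 and 957 to 859, 777 and 785 CPM in control cells but from 920.1, 852 and 868 to 1297, 1293 and 1317 CPM with the guide, an interaction of 0.79 ± 0.05 (adjusted p = 9.1e-30). SARS held 284, 263 and 266 and then 268, 237 and 235 CPM in control cells, against 279, 260.1 and 259.8 and then 405, 430.0 and 413 CPM with the guide (interaction 0.79 ± 0.06, adjusted p = 1.0e-22). CARS (0.75), MARS (0.66), YARS (0.59), EPRS (0.45), AARS (0.45) and LARS (0.42) had positive interactions too, and in all 14 cytosolic interactions were positive and 3 negative (35.5% of all genes). Under vehicle no member differed between the guides (1.64% of all genes). The Atf4 list held 16 of 19 higher and 1 lower with the guide under IFNg, against 1 and 3 in control cells, with 15 positive interactions.

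The members that fell in PTPN2-guide MelJuSo cells and held were QARS, VARS, FARSA and 4 mitochondrial ones. FARSA fell by 0.25 on the log2 scale, and its interaction (-0.20, adjusted p = 0.026) did not hold in every alternative and with each library left out. VARS held 217, 213 and 209.9 CPM under vehicle and 142, 149 and 135 CPM under IFNg in PTPN2-guide cells (-0.58), but 209.9, 211 and 210.1 and then 205, 209 and 199 CPM in control cells, an interaction of -0.54 ± 0.06 (adjusted p = 2.0e-13). AARS2, the mitochondrial counterpart of AARS, fell with the guide from 74.5, 68.1 and 70.3 to 41.5, 40.3 and 44.1 CPM (-0.75 ± 0.07) while AARS rose by 0.32. Its interaction was -0.61, and IARS2 (-0.37), TARS2 (-0.37) and MARS2 (-0.36) also had negative interactions. These 4 held in every alternative.

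In A375, where vehicle labels and PTPN2 counts disagree, the response over both guides was higher for 10 cytosolic members and lower for 8 (72.2% of 13410 genes called), and higher for 2 and lower for 6 mitochondrial ones. GARS (0.58), SARS (0.42) and RARS (0.35) rose after WARS, and VARS (-0.79), QARS (-0.48) and IARS (-0.44) fell. VARS went from 212 and 209.9 CPM (labelled control) and 218, 218 and 242 CPM (labelled PTPN2 guide) to 126, 132 and 131 CPM and 132, 116 and 121 CPM, with no overlap in either. GARS depended on the label, with 517 and 529 to 1079, 1086 and 1114 CPM in libraries labelled control and 773, 792 and 799 to 813, 834 and 875 CPM in those labelled PTPN2 guide. YARS2 (-0.67), SARS2 (-0.69) and WARS2 (-0.51) led the lower mitochondrial members.

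**Figure D5:**
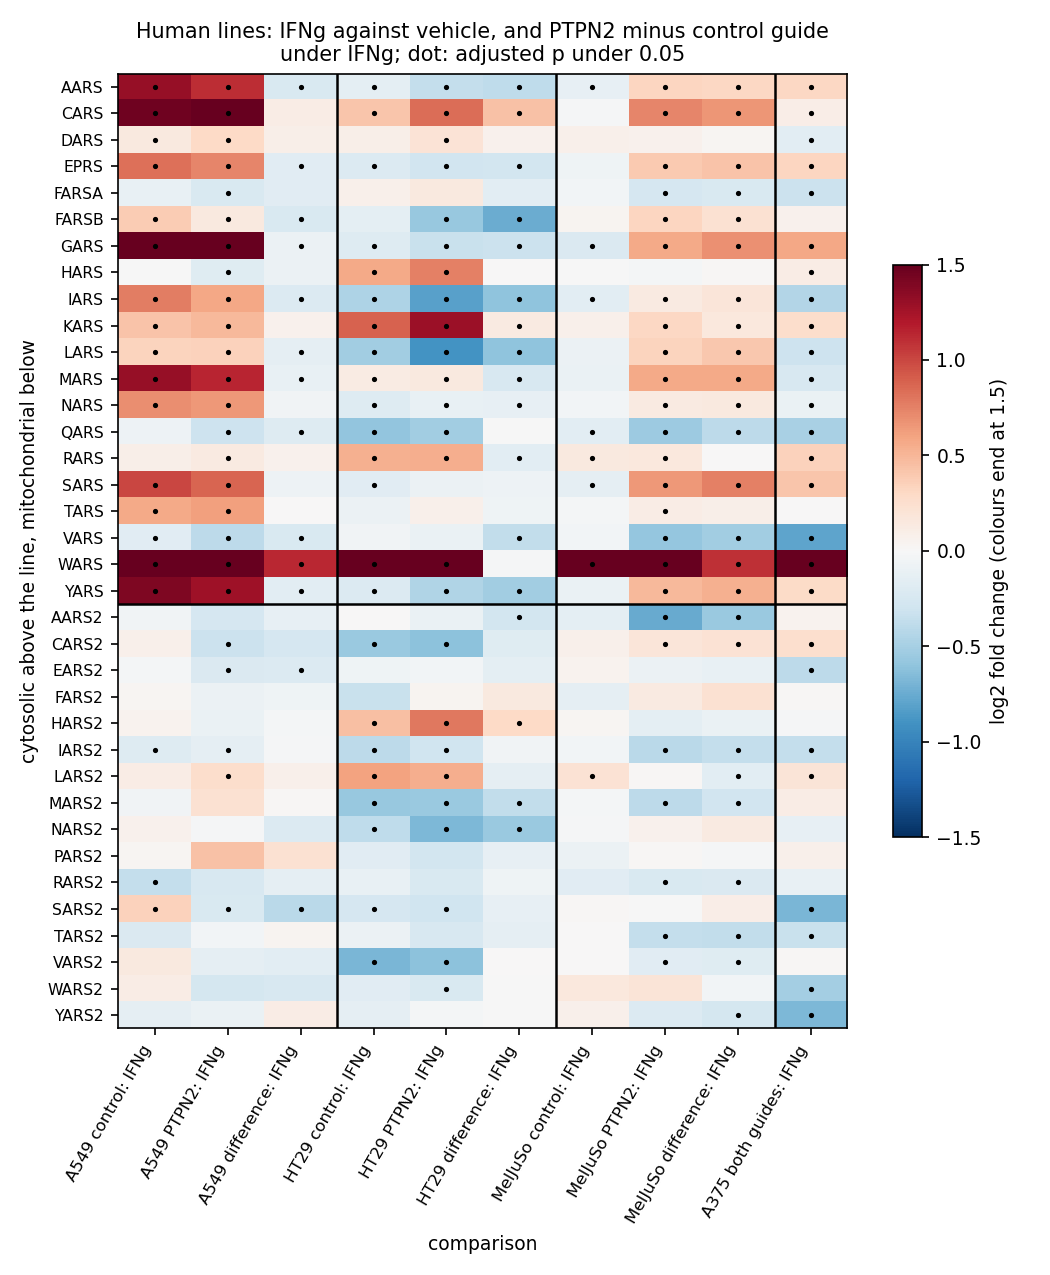
Log2 fold changes (colour, ending at 1.5 in each direction) of the 36 members (y axis) in the human lines (x axis): IFNg against vehicle in control and PTPN2-guide cells and PTPN2 guide minus control under IFNg for A549, HT29 and MelJuSo, and IFNg against vehicle over both guides for A375, with a dot where the adjusted p is under 0.05. WARS is red in every IFNg response, while GARS is red in A549, pale blue in HT29 and red in MelJuSo only with the guide.

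The responses of the members to IFNg differed between control cells of the lines in the single fit of A549, HT29 and MelJuSo. Between HT29 and A549 17 cytosolic and 8 mitochondrial members differed (40.5% of all genes), between HT29 and MelJuSo 11 and 7 (37.3%), and between A549 and MelJuSo 14 and 1 (26.1%). GARS responded more in A549 than in HT29 or MelJuSo, by 1.77 in each case, and KARS more in HT29 than in A549 (0.42) or MelJuSo (0.79). The mean log2 CPM of the cytosolic members without WARS moved by 0.63 in control A549 cells under IFNg, -0.01 in HT29, -0.05 in MelJuSo and 0.23 in B16, and that of the mitochondrial members without LARS2 by -0.01, -0.23, -0.02 and -0.10. In B16 cells with the Ptpn2 guide the cytosolic mean lay 0.17 above control vehicle without cytokine, 0.38 above it under IFNg and 0.53 above it under IFNg with TNFa, against -0.02, -0.07 and -0.10 for the mitochondrial mean.

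Genes that work beside the synthetases were counted in the same B16 comparisons, where 37.9% of all genes were called under IFNg in control cells and 69.3% and 76.7% under IFNg with TNFa in control and Ptpn2-guide cells. Of the 3 scaffold genes 2 rose under IFNg in control cells and all 3 rose under IFNg with TNFa in both genotypes, Eef1e1 by 0.71 in Ptpn2-guide cells. Of the 5 cytosolic elongation factors 1, Eef1a1, was called under IFNg in control cells, where it fell by 0.24. Of the 12 mitochondrial translation factors tested none was called under IFNg in control cells, and 4 rose and 5 fell in Ptpn2-guide cells under IFNg with TNFa, again with no common direction. Of the 9 tryptophan genes 3 were tested in B16, of which 1 rose and 2 fell under IFNg in control cells.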

How the data were processed

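Raw read counts per gene were deposited by the authors in 1 table per line. The submitters' processing notes name HTSeq 0.6.1p1, Bowtie2 2.2.4, Trimmomatic 0.33, bcl2fastq 2.17.1.14 and DESeq2, and the builds mm10 and hg19. Per the labels' protocols libraries were directional, after mRNA capture, with short paired reads. The strand setting used in counting is not given in the sources used here, nor is the annotation. All columns were mapped to samples by name.

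Each line was fitted on its whole table in edgeR 4.0.16 (R 4.3.3), with filterByExpr, TMM scaling, 1 mean per group and the robust quasi-likelihood F test, and p-values were adjusted by Benjamini-Hochberg over all tested genes, with a threshold of 0.05. Standard errors were taken as the fold change over the square root of F. CPM are TMM-scaled, and mean log2 CPM used a prior count of 2. A library stood apart where its root mean square log2 deviation from its group passed 0.2. Control WARS responses were compared between lines in a joint fit, added after the data were seen, as were the pooled A375 guides and the fits without the 5 libraries. Other alternatives were RLE scaling, no filter, DESeq2 1.42.0, a replicate block, fits of the compared groups alone, removal of a length trend (B16) and leaving out each library. For B16 and A549 under IFNg the fit was also run on counts simulated from its own means and spread. That cannot test the model itself. Counting depth limits members of low count most.

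All 36 members could be named, Wars in every comparison, with up to 8 called members per direction and compartment by size of change, up to 4 called genes per other list, and the 5 genes most like Wars over the 14 B16 groups. The members and lists were chosen with earlier results of these data known. No pairing by replicate number was found, since none of 91 pairs of B16 groups, and none of 6 in each human line, had every correlation over 0.1. The B16 correlations ran from -0.35 to 0.38. With so few libraries per group, this check cannot show that replicates of the same number shared no batch.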

Additional observations from a re-analysis of the deposited data

Results flagged for a closer look

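Each value below is a difference between genotypes in the log2 response to a cytokine (response with the Ptpn2 guide minus response of control), or between lines in the response of control cells to IFNg. Each was tested as an interaction and passed at the adjusted threshold, and those between genotypes also passed in every alternative and with each library left out. In B16 they were 0.53 for Wars and 0.30 for Kars under IFNg, 0.59 for Wars under IFNb with IFNg, and 0.75 for Wars and 0.43 for Kars under IFNg with TNFa. Those under IFNb were -0.31 for Gars and -0.38 for Lars, and under IFNb with TNFa -0.36 for Nars.

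In A549 the IFNg interaction was 1.08 for WARS and -0.58 for SARS2. In HT29 it was 0.42 for CARS, 0.40 for KARS, -0.35 for IARS, -0.37 for LARS and -0.34 for WARS, so that WARS went the other way from its direction in A549 and MelJuSo. In MelJuSo it was 1.18 for WARS, 0.79 for GARS, 0.79 for SARS, 0.75 for CARS, 0.66 for MARS, 0.59 for YARS, 0.45 for AARS, 0.45 for EPRS, 0.42 for LARS, 0.29 for IARS, 0.28 for FARSB, 0.23 for KARS and 0.18 for NARS. The negative ones there were -0.54 for VARS, -0.38 for QARS, -0.61 for AARS2, -0.37 for IARS2, -0.37 for TARS2 and -0.36 for MARS2.

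Between lines the response of WARS in control cells was higher by 2.02 in HT29 than in A549, by 2.74 in HT29 than in MelJuSo and by 0.72 in A549 than in MelJuSo.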

How the results depend on the processing

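No Wars or WARS response or interaction lost its call when a single library was left out. Replicate numbers were not treated as pairs in the main fits. With a replicate block, 731 of 738 member values kept their call and 7 lost it. The counts kept were 724 of 738 with RLE scaling, 676 without a filter, 643 with DESeq2, 651 of 688 with only the compared groups, 387 of 413 without the 5 libraries that stood apart, 357 of 413 with the length trend removed and 3892 of 4471 with single libraries left out. The cause was not tested for any change below. Counts in this section describe departures from the main fit, carry no share over all genes, and nothing is read from them about the set. Relative counting error is larger for members of lower count.

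Without the filter, cytosolic calls were 9 for TNFa in control B16 cells, 1 for the guide difference under TNFa, 2 for the interaction with IFNb and TNFa, and 1 for that pair against IFNb in Ptpn2-guide cells. Mitochondrial calls were 1 for the guide difference under TNFa and under IFNb with TNFa, 1 for the interactions with IFNg, TNFa and IFNb with TNFa, 0 for that with IFNb and IFNg, 1 for IFNb with TNFa against IFNb in control cells, 5 for IFNg with TNFa against IFNg in Ptpn2-guide cells and 1 for the guide difference in A375 vehicle. Without the 5 libraries that stood apart, mitochondrial calls were 4 for IFNb with IFNg in control cells, 3 for the guide difference under IFNg with TNFa, and 0 and 2 for the interactions with IFNb and IFNg and with IFNg and TNFa. Cytosolic calls were 2 for the guide difference under TNFa, 3 and 9 for the interactions with IFNb and IFNg and with IFNb and TNFa, and 2 for IFNb with TNFa against IFNb in control cells, and Wars under IFNb with IFNg against IFNg was -0.10.

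With the replicate block, mitochondrial calls were 0 for the guide difference under IFNb, 2 for the interaction with IFNg and TNFa and 1 for the guide difference in A375 vehicle, and 1 cytosolic call was made between guides in MelJuSo vehicle. With RLE scaling, cytosolic calls for the interaction with IFNb and IFNg were 2, and the mean levels in PTPN2-guide HT29 cells under IFNg were -0.20 (cytosolic) and -0.31 (mitochondrial). With only the compared groups, cytosolic calls were 6 (11 in the main fit) for the guide difference under IFNb with IFNg. They were 10 (5) for the interaction with IFNb and TNFa and 2 (1) for that pair against IFNb in control cells. Between guides in MelJuSo vehicle they were 3 (0). Mitochondrial calls were 1 and 3 (3 and 5) for the guide difference under IFNb with IFNg and under IFNg with TNFa. For the interaction with IFNb and IFNg they were 0 (1).

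With DESeq2, mitochondrial calls in B16 were 0, 1 and 2 for the guide difference under IFNb, IFNg and IFNg with TNFa, 0 for the interactions with IFNb and IFNg and with IFNg and TNFa, and 1 for IFNb with IFNg against IFNg in control cells. Cytosolic calls were 1 for the guide difference under TNFa, and 3 and 2 for the interactions with IFNg and with IFNb and IFNg. In A375 the mitochondrial calls were 0 between guides in vehicle and 1 for the interaction. In A549 they were 1 for IFNg with the guide and 1 between guides under IFNg, with 4 cytosolic calls there and 1 for the interaction. In HT29 mitochondrial calls were 1 and 2 between guides under vehicle and IFNg, and the interaction gave 5 cytosolic and 0 mitochondrial calls. In MelJuSo IFNg gave 4 cytosolic and 0 mitochondrial calls in control cells and 4 mitochondrial calls with the guide, and 4 between guides.

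With the length trend removed in B16, cytosolic calls were 1 for the guide difference under TNFa, 3 for the interaction with IFNb and IFNg and 7 for IFNb with IFNg against IFNg in control cells. Mitochondrial calls in control cells were 4 (2 in the main fit) for IFNg against IFNb and 4 (2) for IFNb with IFNg against IFNg. For IFNg with TNFa against IFNg they were 5 (3). Wars in Ptpn2-guide cells given IFNb with IFNg against IFNg was called at -0.15. Reversed log2 values were Iars2 at 0.068 under TNFa in control cells, Iars2 at 0.089 and Eprs at 0.040 under TNFa with the guide, Gars at -0.042 under IFNb with IFNg with the guide, and Hars at -0.046 and Mars2 at 0.13 under IFNg with TNFa with the guide. Against IFNg alone, Aars (0.11) and Rars (-0.069) reversed for IFNb with IFNg and Gars (-0.024) for IFNg with TNFa in control cells, and Farsa (-0.028) for IFNg with TNFa with the guide.

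Over all 20 cytosolic members the mean level under IFNg was 0.27 in control and 0.44 in Ptpn2-guide B16 cells (0.60 with TNFa as well), 0.79 in control A549, 0.28 and 0.08 in control and PTPN2-guide HT29, and 0.11 and 0.37 in MelJuSo. Without Wars, Gars and Kars it was 0.20 and 0.33 in B16 (0.28 and 0.48 with TNFa), 0.58 in A549, -0.06 and -0.28 in HT29 and 0.14 in PTPN2-guide MelJuSo. Over all 16 mitochondrial members it was -0.18 and -0.29 in HT29.

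With each library left out in turn, mitochondrial calls in control B16 cells ranged from 2 to 5 for IFNb, 1 to 3 for TNFa, 4 to 6 for IFNb with IFNg and 2 to 5 for IFNb with TNFa, which was also 2 to 5 with the guide. Between guides they ranged from 0 to 1 under IFNb, 0 to 2 under IFNg, 1 to 3 under IFNb with IFNg and 2 to 4 under IFNg with TNFa. Cytosolic interaction calls ranged from 2 to 7 for IFNb, 3 to 7 for IFNg, 1 to 3 for IFNb with IFNg and 1 to 6 for IFNb with TNFa, and mitochondrial ones from 0 to 1 for IFNb with IFNg and 0 to 2 for IFNg with TNFa. Against single cytokines, mitochondrial calls ranged from 1 to 2 (control) and 2 to 4 (guide) for IFNb with IFNg against IFNg and 2 to 5 for IFNg with TNFa against IFNg with the guide, and for IFNb with TNFa against IFNb cytosolic calls ranged from 0 to 2 (control) and 1 to 3 (guide) and mitochondrial ones from 0 to 1 (guide). In A375 vehicle the guide difference ranged from 0 to 2 mitochondrial calls. In A549 mitochondrial calls ranged from 2 to 5 for IFNg with the guide, and the guide difference under IFNg from 7 to 9 cytosolic and 1 to 2 mitochondrial calls. In HT29 mitochondrial calls ranged from 0 to 1 and 2 to 3 between guides under vehicle and IFNg and 0 to 1 for the interaction. In MelJuSo IFNg calls in control cells ranged from 4 to 9 (cytosolic) and 0 to 1 (mitochondrial), and with the guide from 4 to 7 mitochondrial ones.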
